A study of Capra hircus with 2 samples.

Results

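MRPS6, MRPL39, TRMT10C and TOMM70 are nuclear genes whose proteins work in mitochondria, and they were taken by name, 4 of the 154 complete gene rows of a single-cell expression table from goat ovary. MRPS6 encodes a protein of the small subunit of the mitochondrial ribosome and MRPL39 a protein of its large subunit. TRMT10C encodes a subunit of mitochondrial RNase P, which cuts tRNAs out of mitochondrial transcripts. TOMM70 encodes a receptor of the outer membrane that takes up proteins made in the cytosol.

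The cells were ovarian granulosa cells of Ji'ning grey goats, the somatic cells around the oocyte. The library labelled HGC is from goats of high fertility (above 3 kids per birth) and the library labelled LGC from goats of low fertility (below 2). No genotype, treatment, age or number of goats is given in the labels. Transcripts were counted at their 3′ end by unique molecular identifiers (UMIs) in 7106 HGC and 3345 LGC cells. Neither group is replicated, so nothing was tested, and every interval below is an exact 95% interval for counting error. A difference between the libraries cannot be told apart from a difference between goats, dissections or preparations.

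Mitochondria keep a small genome of their own, whose long transcripts are cut at their tRNAs, with RNase P, and translated inside the organelle by ribosomes whose proteins are all encoded in the nucleus. Proteins such as MRPS6, MRPL39 and TRMT10C are made in the cytosol and enter through the translocase of the outer membrane, in which TOMM70 binds incoming precursors and chaperones. In granulosa cells the first step of steroid synthesis, the cleavage of cholesterol, takes place in mitochondria.

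The median cell held 7214.5 UMIs in HGC and 11080 UMIs in LGC, and 27 cell barcodes occurred in both. None of 9 granulosa marker genes (FSHR and CYP19A1 among them) is among the 154 genes, so the labelled cell type was not checked here. The 154 genes are the rows before the point where the data used here break off, so absence from them says nothing about expression. Of 25 markers of other ovarian, blood and germ cells, 3 were present. SAMSN1, an adaptor of blood cells, stood at 15.5 CPM (UMIs per 1000000 UMIs of the library) in HGC and 14.7 CPM in LGC. CD96, of T and NK cells, stood at 0.329 and 0.460 CPM, and UPK1B, of the surface epithelium, at 0.455 and 0.504 CPM.

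All 4 genes are on chromosome 1 in RefSeq's goat assembly ARS1.2, which names each of them once. Their neighbours there, JAM2 beside MRPL39, NIT2 beside TOMM70 and CRYBG3 beside MRPS6, are also among the 154 genes. The shared chromosome therefore does not set the 4 genes apart. There the gene MRPS6 overlaps SLC5A3, a sodium and myo-inositol cotransporter gene, and TOMM70 overlaps LNP1. SLC5A3 and LNP1 were not analysed here, and how the authors' counting treated overlapping genes is not given in the sources used here. UMIs of MRPS6 and TOMM70 may therefore be split with, or lost to, an overlapping gene. MRPL39 and TRMT10C overlap no other protein-coding gene in that assembly.

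The order of the levels was the same in both libraries, with MRPL39 highest, then TOMM70, TRMT10C and, far below, MRPS6. These are UMIs per library total, counted once per captured 3′ end and so not divided by gene length. MRPL39 stood at 127 CPM in HGC (124 to 130) and 105 CPM in LGC (102 to 108). For TOMM70 the levels were 76.2 CPM (74.1 to 78.4) and 62.2 CPM (60.0 to 64.6). TRMT10C was measured at 40.0 CPM (38.5 to 41.6) and 39.3 CPM (37.5 to 41.2). No interval of these 3 genes overlapped that of another within a library.

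MRPS6 was rare. It had 85 UMIs in 83 cells of HGC, or 1.33 CPM (1.06 to 1.65), and 194 UMIs in 184 cells of LGC, or 4.25 CPM (3.67 to 4.89). MRPL39, of the other ribosomal subunit, had 8105 and 4809 UMIs. In order of level among the 101 genes that had 100 or more UMIs over both libraries, MRPL39 was 8th in both libraries and TOMM70 14th in both. TRMT10C was 21st in HGC and 20th in LGC, and MRPS6 91st and 65th.

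**Figure D1:**
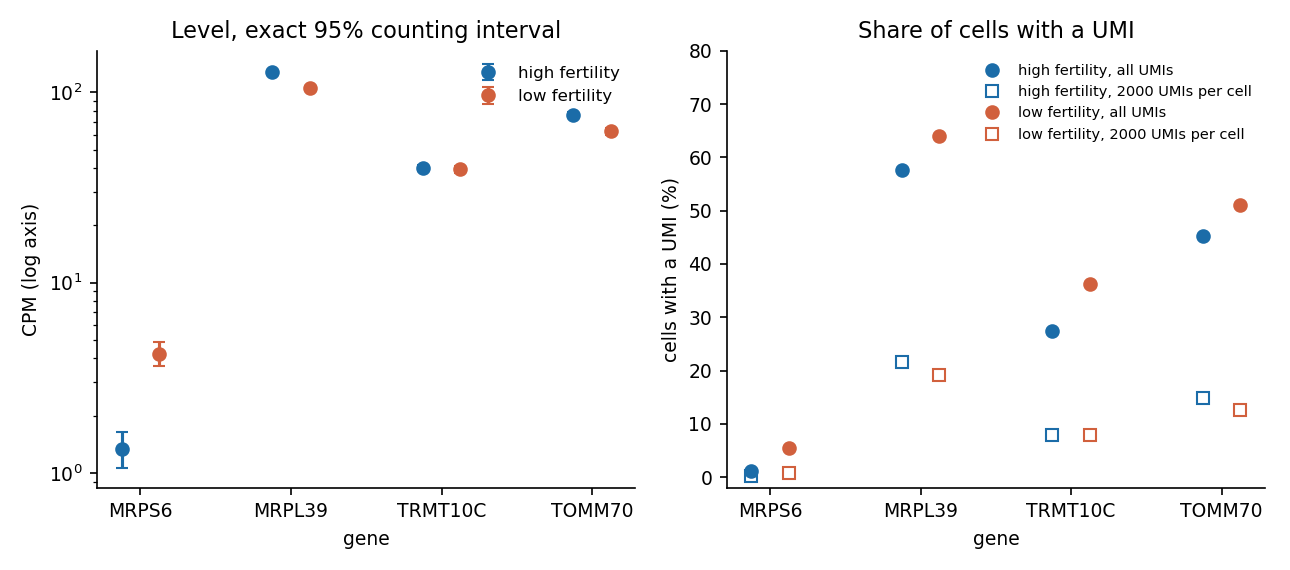
Level in CPM on a log axis (left, bars are exact 95% counting intervals) and percentage of cells with a UMI (right) of the 4 genes in HGC (blue) and LGC (orange). Filled points on the right use all UMIs and open squares the share expected at 2000 UMIs per cell. MRPS6 stands at 1.33 and 4.25 CPM, far below the other 3 genes, and the larger shares of LGC for MRPL39 and TOMM70 turn at equal depth.

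Relative to HGC, LGC held 3.19 times the MRPS6 (2.46 to 4.16). MRPL39 and TOMM70 were instead lower there, at 0.828 times (0.799 to 0.859) and 0.817 times (0.780 to 0.856). TRMT10C was not distinguishable between the libraries, with a ratio of 0.984 (0.926 to 1.05). So 1 of the 4 genes was 1.5-fold or more higher in LGC, against 5.94% of the 101 genes, and 0 of 4 were 1.5-fold or more higher in HGC, against 11.9%.

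The whole interval lay above 1 for MRPS6 alone among the 4, as for 20.8% of the 101 genes. It lay below 1 for MRPL39 and TOMM70, as for 45.5% of the 101. The median ratio was 0.895 over the 101 genes and 0.906 over the 4, so the ratios of MRPL39 and TOMM70 lay close to the middle of these 101 genes. The gene rows used here broke off within an incomplete row. Medians, ranks and percentages over the 101 genes may therefore not stand for the whole transcriptome. Set against the median ratio of the 18 abundant genes (50 CPM or more in each library), 0.893 or -0.16 on the log2 scale, MRPS6 stood at 3.57, MRPL39 at 0.928 and TOMM70 at 0.915, while TRMT10C turned to 1.10. MRPS6 had the highest ratio of the 101 genes, and MRPL39, TRMT10C and TOMM70 were 64th, 37th and 66th from the top.

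**Figure D2:**
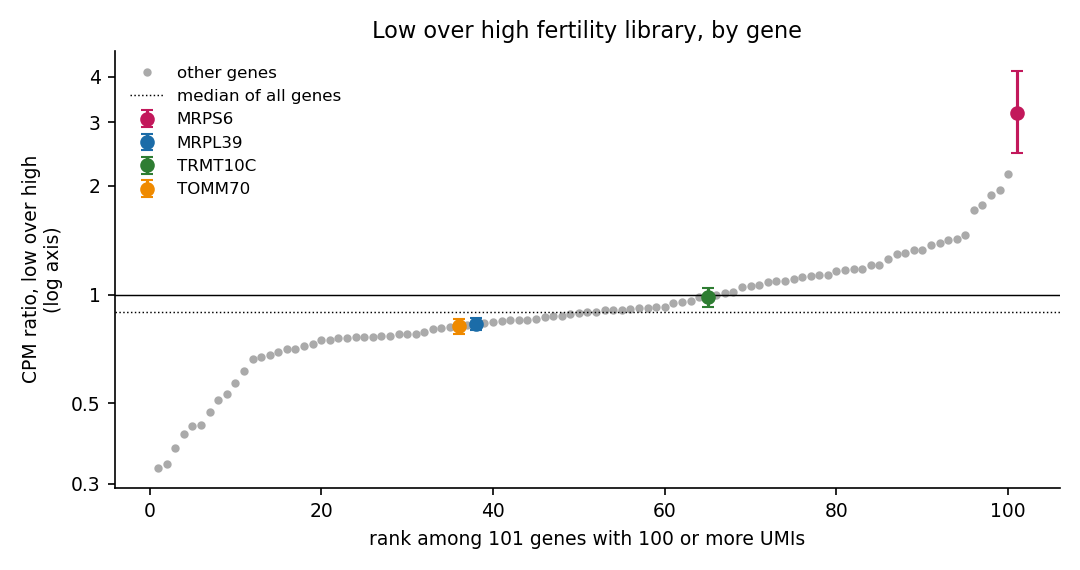
CPM ratio LGC over HGC (log axis) for the 101 genes with at least 100 UMIs, ranked along the horizontal axis. Coloured points with exact 95% counting intervals are the 4 genes, grey points the other genes, the solid line is 1 and the dotted line the median of these 101 genes, 0.895. MRPS6 is the last point on the right at 3.19, while TOMM70, MRPL39 and TRMT10C lie at 0.817, 0.828 and 0.984.

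How many cells had a UMI depended on the libraries' unequal depth as well as on the level. MRPL39 was detected in 57.6% of the cells of HGC (56.4% to 58.7%) and 64.0% of LGC (62.3% to 65.6%), although its level was higher in the former. At 2000 UMIs per cell, which left 6897 and 3213 cells, its expected shares were 21.7% and 19.2%. TOMM70 went from 45.2% and 51.1% of cells to 14.9% and 12.6%, and TRMT10C from 27.5% and 36.2% to 7.85% and 7.92%. At equal depth the shares of MRPL39 and TOMM70 were thus larger in HGC, as their levels were. MRPS6 was found in 1.17% (0.931% to 1.45%) and 5.50% (4.75% to 6.33%) of cells, and in 0.255% and 0.826% at equal depth. No cell type that should lack these genes was at hand, so the part of these shares that free RNA could give was not measured.

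Most cells with MRPS6 held a single UMI of it, with 2 cells of HGC and 10 cells of LGC above 1 and none above 2. MRPL39 reached 15 UMIs in a cell of HGC and 18 UMIs in a cell of LGC. The number of cells in which each gene was found was near the number from a Poisson distribution with the cell's depth. For MRPL39 these were 4090 cells against 4210 in HGC and 2140 against 2215 in LGC. For TOMM70 they were 3210 against 3278 and 1709 against 1729, and for TRMT10C 1951 against 2017 and 1210 against 1262. Each of these 6 counts lay somewhat below its Poisson number. MRPS6 was found in 83 cells against 84.2 and in 184 against 184.4. The Poisson numbers were drawn from each gene's own UMIs in cells of like depth. For a gene as rare as MRPS6 the 2 numbers must therefore lie close, and its closeness shows nothing about its spread. COX17, which carries copper to the respiratory chain's terminal oxidase, stood at 53.7 CPM in HGC and 94.8 CPM in LGC. Its level lay between TRMT10C and TOMM70 in HGC and between TOMM70 and MRPL39 in LGC. COX17 was found in 2225 cells against 2479 and in 1897 against 2156, further below its Poisson number than these genes.

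Cells were then grouped by their total UMIs into 8 bins. TOMM70 took a smaller part of the UMIs in deep cells of both libraries. In HGC it stood at 91.0 CPM in cells of 2500 to under 5000 UMIs, 78.5 CPM at 10000 to under 15000 and 51.4 CPM at 30000 or more. In LGC the same bins gave 79.6, 67.6 and 47.2 CPM. Cells below 5000 UMIs held 1.40 times (1.27 to 1.55) the TOMM70 of cells of 15000 or more in HGC and 1.37 times (1.13 to 1.64) in LGC. Such a gradient was common, with a median ratio of 1.26 in HGC and 1.14 in LGC over the 101 genes. From the lowest ratio, TOMM70 was 66th of the 101 in HGC and 63rd in LGC.

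MRPL39, the ribosomal gene with the highest level, had no such gradient between those bounds, with ratios of 0.930 (0.857 to 1.01) and 0.968 (0.820 to 1.13). It was highest in middle bins, at 137 CPM in cells of 15000 to under 20000 UMIs of HGC, and stood at 121 CPM at 30000 or more. In LGC it stood at 116 CPM in cells of 20000 to under 30000 UMIs and at 83.7 CPM (78.3 to 89.4) at 30000 or more. That last bin held 225 cells and had the lowest MRPL39 of the 8.

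TRMT10C had shallow over deep ratios of 1.15 (0.999 to 1.32) and 1.04 (0.794 to 1.33). Its 66.6 CPM (49.3 to 88.1) in cells below 2500 UMIs of HGC rested on 49 UMIs, beside 40.2 CPM in the next bin. MRPS6 had ratios of 1.32 (0.590 to 2.77) and 0.879 (0.316 to 1.98), on 11 and 6 UMIs in the shallow cells, so a gradient of either sign was not detectable at this depth. With bounds of 7500 and 10000 UMIs in place of 5000 and 15000, more cells entered. TRMT10C was then higher in the shallow cells of both libraries, at 1.11 (1.01 to 1.21) and 1.25 (1.07 to 1.46), and MRPL39 lower in those of HGC, at 0.886 (0.841 to 0.933). None of the 4 genes passed 1.5-fold in either library, except that MRPS6 in HGC stood at 1.62 when taken as means over cells. In HGC 7.92% of the 101 genes were 1.5-fold or more lower and 29.7% 1.5-fold or more higher in shallow cells, and in LGC 9.9% and 32.7%. The median ratio of the 101 genes was 1.26 in HGC and 1.14 in LGC.

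**Figure D3:**
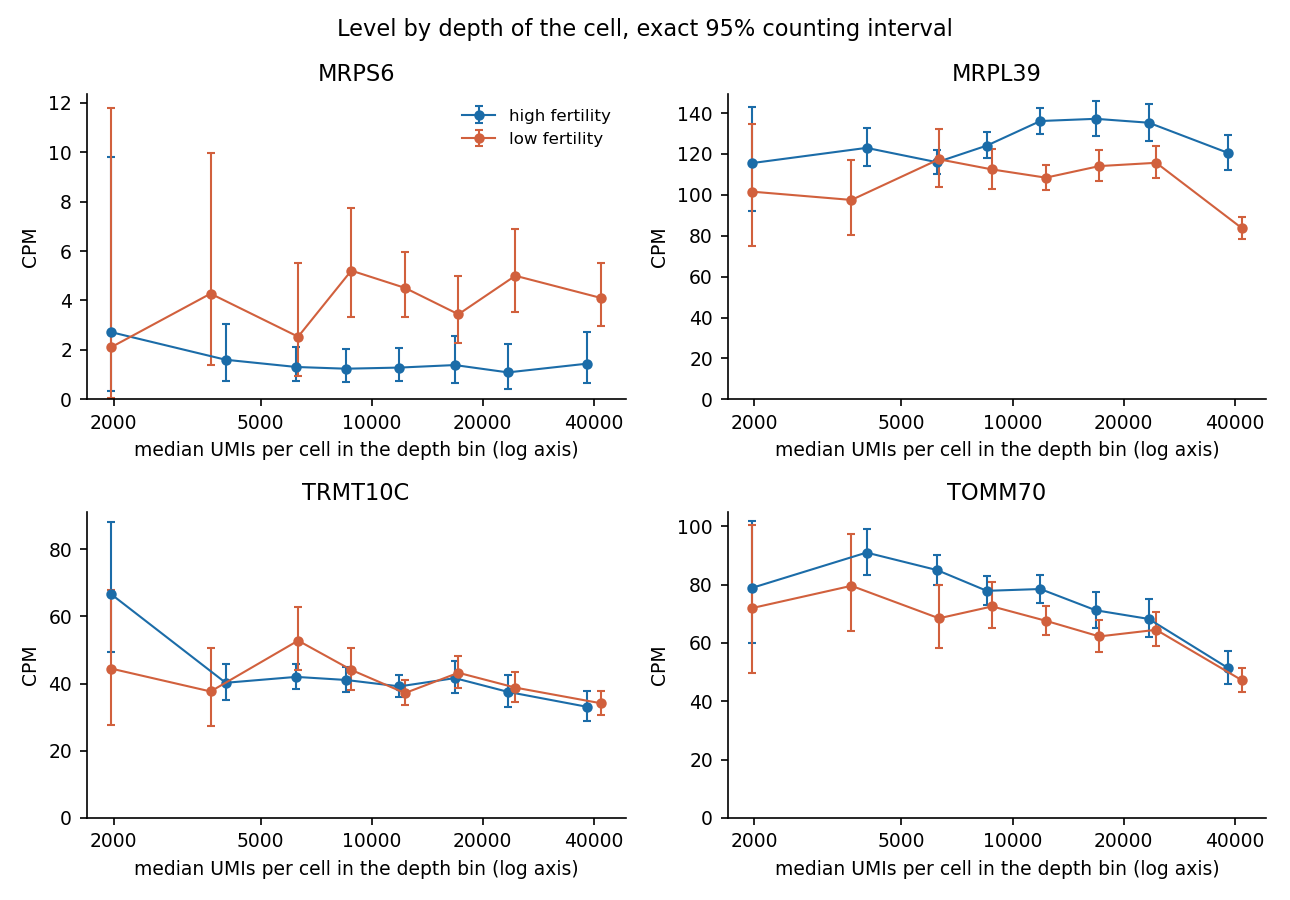
Level in CPM of each gene in 8 bins of depth, plotted at the bin's median UMIs per cell (log axis), for HGC (blue) and LGC (orange), with exact 95% counting intervals. TOMM70 is at 51.4 and 47.2 CPM in the deepest bin, its lowest values, and the LGC points of MRPS6 lie above the HGC points in 7 of 8 bins.

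Within bins of equal depth the differences between the libraries mostly kept their sign. MRPS6 was higher in LGC in 7 of 8 bins, with the interval above 1 in 5, and the exception, below 2500 UMIs, rested on 2 and 1 UMIs. MRPL39 was higher in HGC in 7 of 8 bins, with the interval of the LGC over HGC ratio below 1 in 5. Its ratio ranged from 1.01 (0.887 to 1.15) at 5000 to under 7500 UMIs to 0.695 (0.630 to 0.766) at 30000 or more. TOMM70 was higher in HGC in 8 of 8 bins, with the interval below 1 in 3. TRMT10C was higher in LGC in 5 bins and in HGC in 3. Its interval left 1 in a single bin, at 5000 to under 7500 UMIs, where the ratio was 1.26 (1.03 to 1.53).

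Cells with all 4 genes were few and deep. No number expected from depth was worked out for the 4 together. None of them was found in 1557 HGC cells (21.9%) and 568 LGC cells (17.0%), and all 4 in 17 and 66 cells. The median depth of cells with none of the 4 was 4941 UMIs in HGC and 4397 UMIs in LGC. It was 17126 and 27605.5 UMIs in cells with all 4.

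For each of the 6 pairs, the number of cells with both genes was divided by the number expected from the 2 shares within each depth bin. TRMT10C and TOMM70 had the highest ratio among the 3 pairs without MRPS6, with 1093 cells against 1025 in HGC (ratio 1.07, 1.00 to 1.13) and 748 against 723 in LGC (1.03, 0.962 to 1.11). The ratios of MRPL39 with TRMT10C were 1.05 (0.991 to 1.10) and 1.03 (0.961 to 1.09). MRPL39 and TOMM70 stood at 1.01 (0.964 to 1.05) and 1.00 (0.949 to 1.06). Without matching for depth the same 3 pairs gave 1.13 to 1.24 in HGC and 1.13 to 1.21 in LGC.

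Transcripts of the 2 genes of the mitochondrial ribosome showed no excess of shared cells beyond counting error. MRPS6 and MRPL39 occurred together in 63 cells against 57.7 in HGC (1.09, 0.839 to 1.40) and in 140 against 144.3 in LGC (0.970, 0.816 to 1.15). These intervals are wide, and for MRPS6 with TRMT10C in HGC, on 34 cells, the interval ran from 0.777 to 1.57. None of the 6 pairs reached 1.2 or fell to 1 over 1.2 in either library, but without cells above 15000 UMIs MRPS6 with TRMT10C in HGC stood at 1.32, on 20 cells against 15.2. Among 2080 pairs of the 65 genes with at least 500 UMIs, 9.71% reached 1.2 and 7.79% lay at 1 over 1.2 or less in HGC, and 10.9% and 7.12% in LGC. The median ratio over these pairs was 1.02 in both. MRPS6, with fewer UMIs than that, is not among the 65 genes. The ratio has a ceiling where a gene is found in many cells. MRPS6 was in 184 LGC cells, so its pair with MRPL39 could not pass 184 cells against 144.3. MRPL39 with ENSCHIG00000022046 in LGC had a ratio of 1.00 beside a residual correlation of 0.206. Rarer pairs of the 65 genes can range wider. Staying below 1.2 therefore does not show a lack of co-variation.

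Correlations across cells were likewise small once depth was taken out. With UMIs as counted, Pearson's r of MRPL39 and TOMM70 was 0.289 in HGC and 0.316 in LGC, over 7106 and 3345 cells that share their library and differ in depth. On residuals from the level expected at each cell's depth it was 0.035 and 0.031, so most of it went with depth. MRPL39 and TRMT10C had residual correlations of 0.046 and 0.064, and TRMT10C and TOMM70 of 0.050 and 0.044. Pairs with MRPS6 lay between -0.005 and 0.017. The median over the 2080 pairs was 0.007 in HGC and 0.011 in LGC. Correlations of this size in sparse counts are given as a description only.

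**Figure D4:**
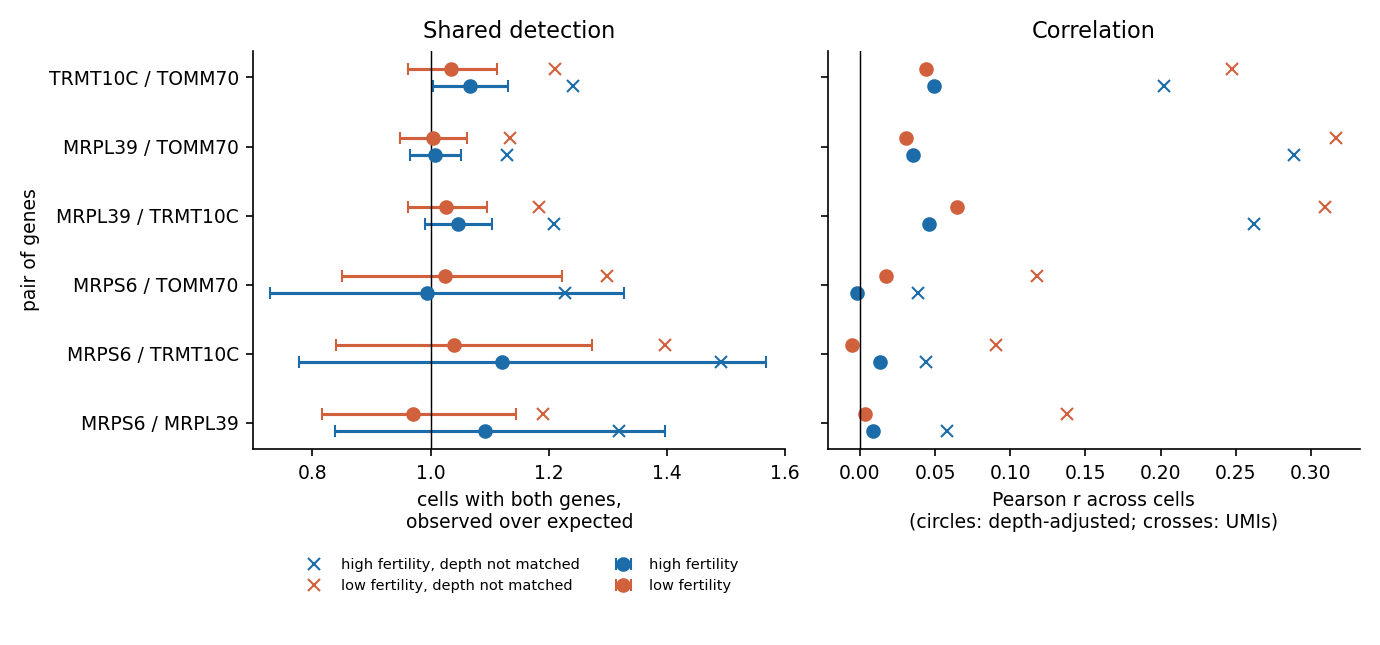
For the 6 pairs of genes, cells with both genes over the number expected (left) and Pearson's r across cells (right) in HGC (blue) and LGC (orange). Circles are matched for depth, with exact 95% counting intervals on the left, and crosses are not. The crosses for the 3 pairs without MRPS6 lie at 1.13 to 1.24 and the circles at 1.00 to 1.07.

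The genes most like each of the 4 were taken as the 3 with the highest residual correlation in the library where it was lower, among the genes with at least 500 UMIs. For MRPL39 they were ENSCHIG00000022046 (r of 0.144 in HGC and 0.206 in LGC), ENSCHIG00000010079 (0.120 and 0.147) and CCT8, a subunit of the cytosolic chaperonin (0.114 and 0.179). No symbol was paired with either identifier. TRMT10C was most like ENSCHIG00000022046 (0.099 and 0.124), SON, a splicing cofactor (0.084 and 0.118), and ENSCHIG00000022648 (0.065 and 0.098). For TOMM70 they were CCT8 (0.056 and 0.073), SON (0.045 and 0.063) and TRMT10C (0.050 and 0.044). MRPL39 and TRMT10C thus shared their first gene, while MRPL39 was not among the 3 of TOMM70. For MRPS6 the highest value was 0.017, with ENSCHIG00000010079, beside 0.028 in LGC. In the other direction, genes were ranked by the residual correlation in the library where it was higher. By that rule ENSCHIG00000011680, without a symbol, ranked lowest for MRPL39 (-0.051 and -0.125), TRMT10C (-0.052 and -0.102) and MRPS6 (-0.023 and -0.022). Within a single library other genes could be lower, such as IFNGR2 with MRPL39 in HGC (-0.054). NFKBIZ, an inflammation-induced regulator of NF-kB, was among the 3 lowest for each of the 4 genes, from -0.014 with MRPS6 to -0.048 with TRMT10C in HGC and from -0.025 with TOMM70 to -0.088 with TRMT10C in LGC. Several of the named genes were abundant in HGC. ENSCHIG00000011680 stood at 3586 CPM, ENSCHIG00000010079 at 516, ENSCHIG00000022046 at 400, CCT8 at 192 and SON at 162. ENSCHIG00000022648 stood at 25.2 CPM. How far the order of these correlations follows the level of the genes was not tested.

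Beside the 4, the lists of mitochondrial genes held 3 more genes of the table. COX17 was 1.76 times as high in LGC (1.69 to 1.85), at 94.8 against 53.7 CPM. GABPA, a transcription factor of many nuclear genes for respiratory chain proteins, stood at 1.87 CPM in HGC and 1.62 CPM in LGC, a ratio LGC over HGC of 0.868 (0.641 to 1.17). TIMMDC1, an assembly factor of complex I, had 25 and 26 UMIs and a ratio of 1.45 (0.806 to 2.62). NSUN3 and QTRT2, which act in tRNA modification, were added once the table's gene names had been seen. QTRT2 stood at 5.99 and 5.74 CPM, a ratio of 0.958 (0.815 to 1.12), and NSUN3 had 12 and 16 UMIs and a ratio of 1.86 (0.826 to 4.31). Of these 5 genes COX17 alone had an interval without 1.

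In cells with a COX17 UMI, at matched depth, MRPS6 was 1.25 times (0.875 to 1.73) in HGC and 1.26 times (1.02 to 1.53) in LGC as high as in the other cells. For TRMT10C the same ratios were 1.14 (1.08 to 1.21) and 1.30 (1.22 to 1.39), and for MRPL39 1.18 (1.14 to 1.21) and 1.08 (1.04 to 1.12). TOMM70 was not distinguishable, at 0.965 (0.922 to 1.01) and 1.02 (0.966 to 1.07). The median over the 64 genes beside COX17 that had 500 or more UMIs was 1.10 (quartiles 0.992 and 1.26) in HGC and 1.05 (0.966 and 1.23) in LGC. In HGC, MRPS6, MRPL39 and TRMT10C thus lay between the quartiles and TOMM70 below them. In LGC, MRPL39 and TOMM70 lay between them, and TRMT10C and MRPS6 above. Where a gene lay outside the quartiles, its interval held the quartile it had passed.

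The cells were also split by ENSCHIG00000012599, an abundant gene without a symbol, at 2.5 on the deposited natural log scale. The 2 groups are called modes here, and whether the values form 2 separate peaks was not tested. TOMM70 differed between the modes in HGC. It stood at 89.8 CPM (86.5 to 93.3) in 3870 cells below the bound and 64.1 CPM (61.4 to 66.8) in 3236 cells above it. In LGC the levels were 65.7 CPM (61.3 to 70.4) in 1100 cells and 60.9 CPM (58.3 to 63.7) in 2245 cells. At matched depth the cells above the bound held 0.758 times (0.726 to 0.791) the TOMM70 of those below in HGC and 0.986 times (0.944 to 1.03) in LGC. The difference between these ratios was not tested, as each is from 1 library.

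The ratio of TOMM70 between the libraries differed by mode. LGC over HGC it was 0.732 (0.676 to 0.792) in cells below the bound and 0.951 (0.895 to 1.01) in cells above it, beside 0.817 over all cells. TRMT10C was lower above the bound in both libraries, at 0.849 times (0.802 to 0.898) and 0.813 times (0.769 to 0.860) at matched depth. MRPL39 stood at 1.06 times (1.03 to 1.09) and 0.989 times (0.957 to 1.02), and MRPS6 at 1.21 times (0.894 to 1.61) and 1.25 times (1.06 to 1.47). Over the 64 genes beside ENSCHIG00000012599 itself the median was 1.09 (quartiles 0.920 and 1.37) in HGC and 0.954 (0.805 and 1.08) in LGC. MRPS6 was about as much higher in LGC in either mode, with ratios of 2.87 (1.81 to 4.57) and 3.18 (2.28 to 4.49).

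**Figure D5:**
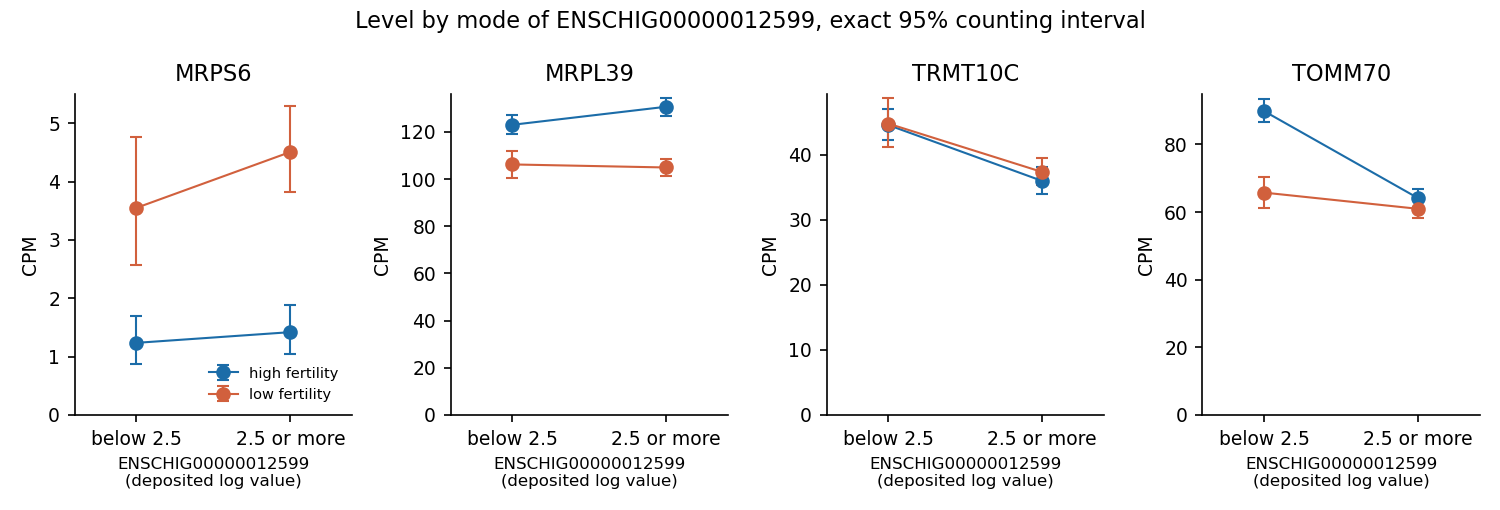
Level in CPM of each gene in cells below 2.5 and at 2.5 or more in the deposited natural log value of ENSCHIG00000012599, for HGC (blue) and LGC (orange), with exact 95% counting intervals. TOMM70 goes from 89.8 to 64.1 CPM in HGC and from 65.7 to 60.9 CPM in LGC, while TRMT10C is lower above the bound in both.

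Cells with a UMI of SAMSN1, 583 in HGC and 366 in LGC, held less of 3 of these genes in HGC, though within the range of the middle genes. At matched depth they held 0.676 times the TOMM70 (0.597 to 0.761), 0.787 times the TRMT10C (0.671 to 0.919) and 0.849 times the MRPL39 (0.779 to 0.924) of the other cells. In LGC the intervals held 1, with TOMM70 at 1.01 (0.896 to 1.13), TRMT10C at 0.908 (0.774 to 1.06) and MRPL39 at 0.974 (0.889 to 1.06). The median over the 64 genes, counted as before, was 0.795 (quartiles 0.426 and 1.33) in HGC and 0.886 (0.455 and 1.42) in LGC, so values below 1 were common. TOMM70, TRMT10C and MRPL39 lay between these quartiles in both libraries. Without these cells the ratios between the libraries were 3.01 for MRPS6, 0.812 for MRPL39, 0.968 for TRMT10C and 0.799 for TOMM70.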

How the data were processed

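The values deposited by the authors, with genes in rows and cells in columns, are on a natural log scale. From the values, each is the natural log of 1 plus 10000 times a gene's UMI count over the cell's total. The tool named per the submitters' processing notes is Cell Ranger 2.2.0. Per the labels' protocols, droplet libraries were made with the 10x 3′ kit V2. Genome build, annotation, cell filter and normalizing program: not given in the sources used here. The smallest total giving whole UMIs (tolerance 0.0001) was taken for each cell, and 100% of the 177610 values above 0 came out whole. The incomplete last row was left out, and 154 genes in 10451 cells were kept. The libraries held 63769786 (HGC) and 45674506 UMIs (LGC). A count of 0 (limit of 3 UMIs) allows 0.047 and 0.0657 CPM.

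Columns were assigned to libraries by their prefix. UMIs were summed per library or depth bin (bounds 2500, 5000, 7500, 10000, 15000, 20000 and 30000 UMIs). Levels have exact Poisson intervals, ratios and shares exact binomial (Clopper-Pearson) ones. Shares at 2000 UMIs are hypergeometric expectations. Expected UMIs and cells at matched depth were taken as fixed, so those intervals are somewhat too narrow. Comparisons between cells marked by another gene used bins with at least 20 cells on each side. Doublets were not treated, and cells were not clustered. The steps were tested on simulated data. Python 3.11.15, numpy 2.4.6, pandas 2.3.3 and scipy 1.17.1 were used.

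The 4 genes and the lists were chosen with earlier results of these data known. Genes were named by membership, by the mitochondrial lists or as the 3 most alike by residual correlation. NSUN3, QTRT2, the cells with SAMSN1, the modes of ENSCHIG00000012599 and the comparison by COX17 were added after the data were seen.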

Additional observations from a re-analysis of the deposited data

How the results depend on the processing

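Of 76 ratios recomputed for 24 results, 66 fell inside the reported value's own counting interval, 10 left it and 0 turned a direction whose interval excluded 1. The 4 differences of deposited log means were compared by sign alone, and 3 kept it. MRPS6 kept its direction in all 10 of its values, its ratios LGC over HGC lying between 2.70 (mean over cells) and 3.57 (next setting). Dividing by the median ratio of 18 abundant genes (50 CPM or more in each library), 0.893 (-0.16 on the log2 scale), gave 0.928 for MRPL39, 0.915 for TOMM70 and 1.10 for TRMT10C. As means over cells MRPL39 stood at 0.873, and without cells above 15000 UMIs at 0.876. Standardised over 8 bins of depth TOMM70 stood at 0.883. The difference of deposited log means of TRMT10C, LGC minus HGC, was 0.018, the other direction from its ratio of 0.984, and standardised over the bins its ratio was 1.04. Chosen after the data were seen, cells below 2.5 in ENSCHIG00000012599 gave 0.863 for MRPL39 and 0.732 for TOMM70, and cells at 2.5 or more 0.951 for TOMM70. With bounds of 7500 and 10000 UMIs the shallow over deep ratio of TOMM70 in HGC was 1.24. The cause of these shifts was not tested. The 24 recomputed pair ratios, with 20 bins or without cells above 15000 UMIs, stayed within their intervals, though MRPS6 with TRMT10C in HGC passed 1.2 without those cells, at 1.32. As means over cells the shallow over deep ratio of MRPS6 in HGC was 1.62, past 1.5-fold and within its interval. Without the cells whose barcode occurs in both libraries the ratio was 3.21 for MRPS6, 0.831 for MRPL39, 0.986 for TRMT10C and 0.817 for TOMM70. MRPS6 rests on few UMIs, which limits its pairs and its values by depth. No paired analysis was possible because a single library stands for each fertility group.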

Other observations

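Cells with a UMI of CCDC80, a gene of an extracellular matrix protein chosen here after the data were seen, numbered 832 in HGC and 359 in LGC. At matched depth MRPS6 in them was 2.01 times (1.27 to 3.02, on 23 UMIs) the level of the other HGC cells and 0.830 times (0.547 to 1.21, on 27 UMIs) that of the other LGC cells. The difference between these ratios was not tested. Counted as cells with both genes over the number from matched depth, MRPS6 with CCDC80 stood at 1.57 (0.992 to 2.35) in HGC, an interval that held 1. In LGC that ratio was 0.838 (0.537 to 1.25). In the comparison of levels, MRPL39 stood at 0.993 (0.943 to 1.05) and 0.984 (0.914 to 1.06), TRMT10C at 1.09 (0.990 to 1.19) and 1.01 (0.898 to 1.14), and TOMM70 at 0.957 (0.890 to 1.03) and 0.872 (0.786 to 0.965). The median over 64 genes was 1.12 (quartiles 0.991 and 1.47) in HGC and 1.08 (0.955 and 1.30) in LGC. In cells with SAMSN1, MRPS6 stood at 0.437 times the other cells (0.090 to 1.28, on 3 UMIs) in HGC and 1.13 times (0.700 to 1.73, on 21 UMIs) in LGC.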
